A study of Mus musculus with 21 samples.

Results

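Nephrin and the Kirrel proteins are single-pass membrane proteins of the immunoglobulin superfamily that bind one another across cell contacts. The genes described here are Nphs1 (nephrin), Nphs1os (a non-coding gene antisense to Nphs1), Kirrel (also called Neph1 or Kirrel1), Kirrel2 and Kirrel3. They were chosen by gene symbol, as a family, with earlier results of these data known, in which Nphs1 and Nphs1os had stood among the genes with the largest fall in neurons carrying the Mex3a fusion. All 5 were listed in both tables, 5 of 23614 genes in the first and 5 of 22945 in the second. Nephrin is best known from the kidney, where it joins neighbouring podocyte foot processes at the slit diaphragm together with Kirrel. In olfactory sensory neurons (OSN) Kirrel2 and Kirrel3 are homophilic adhesion molecules whose amounts differ from one odorant receptor identity to the next, and they take part in sorting axons into glomeruli. Their transcription in OSN is known to depend on odor-evoked activity, through the cyclic AMP cascade of Gnal, Adcy3 and the Cnga2 channel.

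The samples were 21 libraries of cells sorted from the mouse main olfactory epithelium. Every mouse carried a tetracycline-responsive transgene with mCherry and the RNA-editing domain HyperTRIBE, alone (HT, genotype tetO-HyperTRIBE_mCherry) or joined to the RNA-binding protein Mex3a (MexHT, genotype tetO-Mex3a_HyperTRIBE_mCherry). The transgene was driven by gg8tTA and OMPtTA together, active in immature and mature OSN, or by gg8tTA alone, active in immature OSN, and no group was free of a transgene. With both drivers there were 3 HT and 6 MexHT libraries of mCherry-positive OSN, and 3 HT and 5 MexHT libraries of mCherry-negative cells. With gg8tTA alone there were 2 MexHT libraries of OSN and 2 of mCherry-negative cells. Per the labels the negative cells of a given number come from the mouse of the OSN library with that number, and MexHT mouse 6 has only an OSN library. Age is not given in the sources used here. The driver goes with the date in the library names. The deposited gg8 data alone also carry the name Clonetech, and whether their library preparation differed is not given in the sources used here. The effects of these cannot be told apart. Comparisons of constructs and of fractions share libraries, so they are not independent of each other.

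Levels are in TPM, a unit of transcript abundance corrected for gene length and library size, so that levels of different genes can be set side by side. Counts recovered from the TPM steps gave depths of 7529642 to 12600492 in the libraries with both drivers and 10422696 to 15358890 in those with gg8tTA alone. Mex3a, read first as a check on the labels, stood at 328.5 to 1270.7 TPM in MexHT OSN and at 24 to 61.5 in HT OSN, and in negative cells at 57.8 to 206.8 and 29.3 to 74.3. Xist was at 58.4 to 139.8 TPM in all 6 MexHT OSN libraries and at 0.126, 60.3 and 0.14 in HT OSN replicates 1, 2 and 3. In negative cells it was at 55.3 to 162.5 TPM in MexHT and at 0.0934, 76.5 and 0.135 in HT. In gg8 mice Xist was at 0.441 and 159.4 TPM in OSN replicates 1 and 2, and at 0.144 and 21.4 in their negative cells. The gg8 mice thus differed in Xist, and so did the fractions of gg8 mouse 2. The part of this in the gg8 differences was not tested. Sex is not given in the labels. High Xist largely goes with MexHT in mice with both drivers, so a difference in sex and that of construct cannot be fully told apart. The summed level of 8 markers of mature OSN was 7510.6 to 11925.4 TPM in HT OSN, 1779.2 to 5583.7 in MexHT OSN, 4490.5 to 9517.4 in HT negative cells and 370.5 to 6086.9 in MexHT negative cells. The mCherry-negative cells thus held RNA of mature OSN as well. In OSN of the gg8 mice that sum was 580.0 and 197.6 TPM, against 6649.7 and 11992.2 in their negative cells. The gg8 OSN libraries differed in makeup. Immature OSN markers summed to 3932.6 and 1713.7 TPM in replicates 1 and 2, against 2565.3 and 1991.3 in negative cells. Progenitor markers summed to 137.6 and 861.7 TPM, against 1065.6 and 413.7. In such bulk samples, fewer cells of a type and less RNA per cell cannot be told apart.

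Nphs1 lies on chromosome 7 in mm10 (chr7:30458315-30487223, plus strand) and Kirrel2 on the opposite strand beside it (chr7:30447534-30457690, minus strand), with 624 bases between these 2 genes in the GENCODE vM21 annotation. The pair is thus head to head. Nphs1os (chr7:30462164-30465591, minus strand) lies inside the span of Nphs1, and 44.6% of its 1339 exonic bases are also exonic in Nphs1. Kirrel is on chromosome 3 (chr3:87078593-87174747, minus strand) and Kirrel3 on chromosome 9 (chr9:34485894-35036716, plus strand). The RefSeq promoter table (build GRCm38.p6, the assembly of mm10) held windows for 3 of the 5 genes. The windows of the head-to-head pair are shown because these neighbours gave different results below. Each runs 5′ to 3′ on its own gene's strand over 250 bases before the annotated start and, in capitals, 50 from it on.
Nphs1 (chr7:30459808-30460107): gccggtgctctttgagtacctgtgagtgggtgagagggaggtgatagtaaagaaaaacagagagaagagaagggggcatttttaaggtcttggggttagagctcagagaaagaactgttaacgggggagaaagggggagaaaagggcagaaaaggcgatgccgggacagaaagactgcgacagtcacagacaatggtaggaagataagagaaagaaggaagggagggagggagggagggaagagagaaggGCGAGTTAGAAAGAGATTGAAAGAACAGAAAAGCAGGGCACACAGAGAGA
Kirrel2 (chr7:30457466-30457765): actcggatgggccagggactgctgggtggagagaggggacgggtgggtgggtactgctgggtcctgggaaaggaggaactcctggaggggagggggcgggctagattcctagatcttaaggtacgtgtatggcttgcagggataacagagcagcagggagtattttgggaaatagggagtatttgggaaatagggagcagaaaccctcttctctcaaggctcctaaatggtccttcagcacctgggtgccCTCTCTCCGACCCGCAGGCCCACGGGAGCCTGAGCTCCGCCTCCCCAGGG
The RefSeq starts behind these windows are 2543 bases apart, and each lies inside its GENCODE gene. The whole Nphs1 window lies past the GENCODE start of that gene (30458315), so it does not hold the sequence before that start. The Kirrel2 window spans the GENCODE start of Kirrel2 (30457690). GC content was 49.7% in the Nphs1 window, 59.7% in that of Kirrel2 and 69.3% in that of Kirrel, against a median of 52.7% over 32851 promoters of the same length. Both strands were searched for the letters TAATTA, a homeodomain core, which were in 5.29% of all promoters. They were not in the windows of Nphs1, Kirrel2 or Kirrel, which says only that these letters are absent from these windows.

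Nphs1 was high in HT OSN and low in MexHT OSN. In HT OSN it stood at 110.3, 142.3 and 30.5 TPM in replicates 1, 2 and 3. In MexHT OSN the lowest of 6 libraries was at 1.97, the median was 3.96 and the highest library was at 10.6 TPM. The groups did not overlap: the highest MexHT library was below the lowest HT library, replicate 3. The mean was 94.3 ± 57.6 TPM (SD, n = 3) in HT and 5.53 ± 4.04 (n = 6) in MexHT OSN, a ratio of 17.1, and the log2 difference of TPM + 1 was -3.84 (SE 0.58). Since the genes were chosen with this comparison known, its values are given as a description for all 5, with no test. HT OSN replicate 2, the HT library with Xist at 60.3 TPM, was the highest in Nphs1, and with the Xist level as a covariate the difference was -4.5. HT OSN replicate 3, the lowest in Nphs1, also had the lowest HT sum of mature OSN markers, 7510.6 TPM, and the part of that in the level was not tested.

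In negative cells Nphs1 followed the same order of constructs with more spread. It stood at 47.9, 77.9 and 19.2 TPM in HT and at 12.2, 31.3, 2.83, 5.25 and 0.654 in MexHT mice 1 to 5. In both fractions of the HT mice replicate 2 was highest and replicate 3 lowest. MexHT replicate 2 reached into the HT range, and the other 4 MexHT libraries were below it. The log2 difference was -2.61 (SE 0.89, limma adjusted p = 0.218), and it did not pass the threshold of 0.05. None of the 16860 genes tested in negative cells passed (0% higher and 0% lower), although 3465 had an unadjusted p under 0.05, and in a fit of all 4 groups with both drivers 23 genes passed.

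Nphs1 was next compared between OSN and negative cells of the same mouse. In the 3 HT mice the OSN library was higher each time, by 0.64 to 1.18 in log2. In MexHT mice OSN was higher in 2 and lower in 3 of 5 mice, over a range of -1.5 to 0.84. The group difference in MexHT mice (-0.34, SE 0.67) was under its standard error, and it turned to 0.22 without MexHT negative replicate 2. These values share OSN libraries with the comparison that chose Nphs1, so no p is given. In gg8 mice, a separately scaled table, Nphs1 was at 2.59 and 0.145 TPM in OSN and at 4.28 and 4.85 in negative cells. The log2 difference was -1.45 (SE 0.66, limma adjusted p = 0.186). Without gg8 OSN replicate 1 it was -2.28, which rests on OSN replicate 2 alone, with 4 reads of Nphs1.

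**Figure D1:**
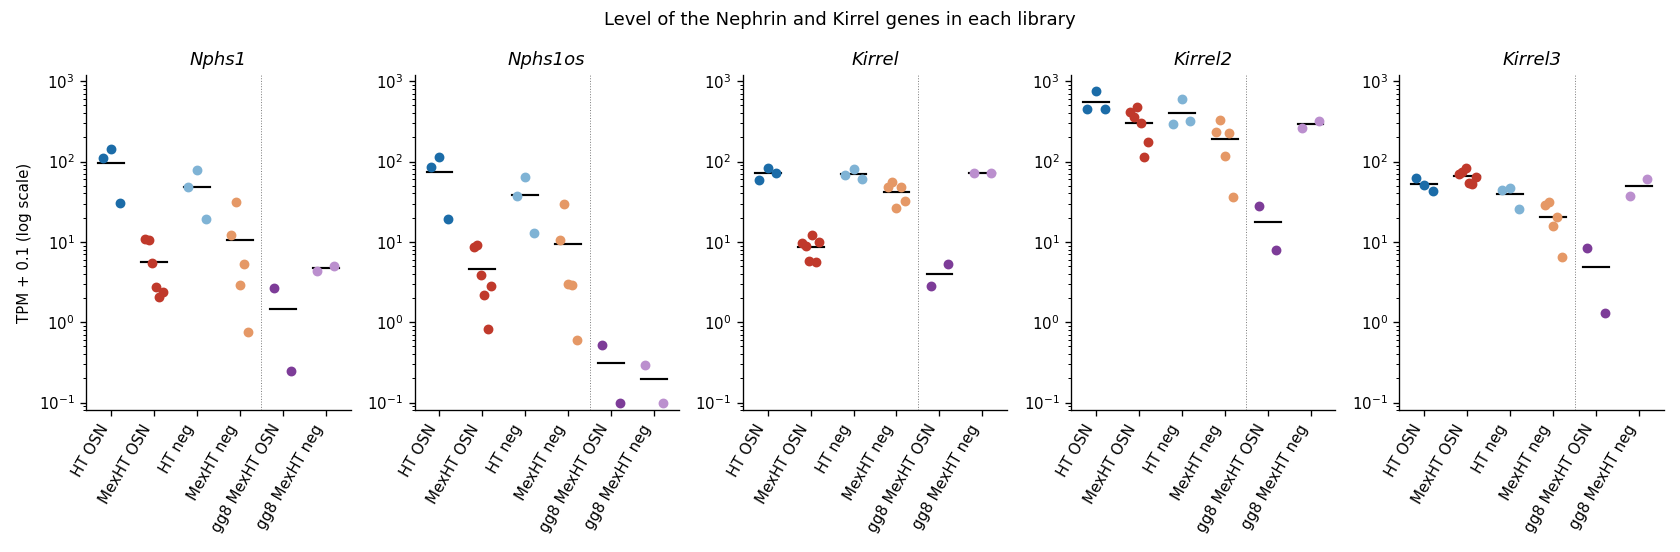
Level of each gene in every library, as TPM + 0.1 on a log axis. Points are libraries, bars are group means, neg is mCherry-negative cells, and the dotted line parts the libraries with both drivers from the separately scaled gg8 table. The MexHT OSN points lie below all HT OSN points for Nphs1, Nphs1os and Kirrel, while 5 of 6 Kirrel2 points and 0 of 6 Kirrel3 points do.

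Markers of podocytes were read as a check on other sources of nephrin RNA. Wt1, a transcription factor that marks podocytes, was at or near 0, with a range of 0 to 0.584 TPM over the 21 libraries. Podxl (podocalyxin, 16 to 53.8 TPM) and Synpo (synaptopodin, 3.49 to 20.3 TPM), which other cell types express too, were present throughout.

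Nphs1os followed Nphs1 in the libraries with both drivers. HT OSN libraries held 85.9, 113.7 and 19.2 TPM, and the MexHT OSN libraries 0.724 to 9.04 (median 3.26), with no overlap and a log2 difference of -3.68 (SE 0.65). In negative cells it ranged from 12.8 to 63.3 TPM in HT and from 0.503 to 29.9 in MexHT, with a log2 difference of -2.43 (SE 0.92, limma adjusted p = 0.22). Its ratio to Nphs1 had a median of 0.799 over these 17 libraries, from 0.368 to 1.21, and both extremes were MexHT OSN libraries with 4 and 10 reads of Nphs1os. In gg8 mice the ratio was at most 0.163. There Nphs1os had 2 and 0 reads in OSN and 1 and 0 in negative cells, all under the floor of 3 counts that a count of 0 allows, so no fold is given.

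The antisense to host ratio was also lower in the gg8 table for most other pairs. Over 76 other genes named as the antisense of a listed host gene, with the host at a mean of at least 3 TPM in both tables, the ratio to the host had a median of 0.241 with both drivers and 0.0471 with gg8tTA. It was lower in the gg8 table for 62 of the 76. Driver, date and the name Clonetech all go with that table, so their parts in these ratios cannot be told apart. The kit was stranded per the labels, but whether the counting used strand is not given in the sources used here. Reads of Nphs1 and Nphs1os over their shared exons therefore cannot be told apart, and these genes are not separate observations. This check was chosen after the values were seen.

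**Figure D2:**
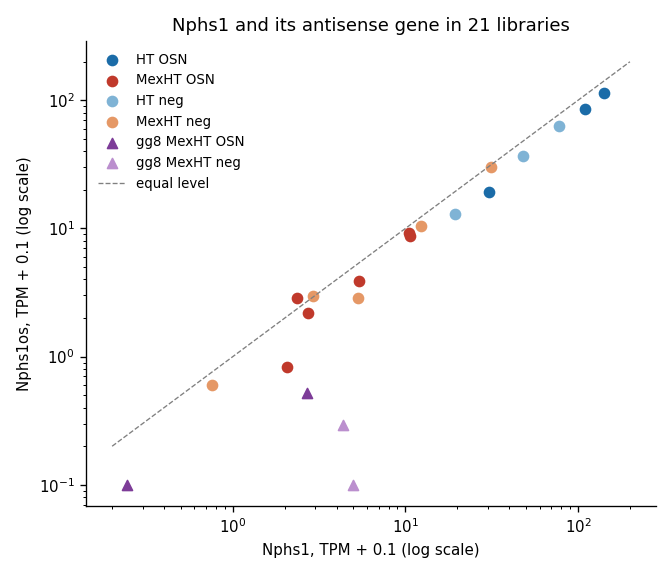
Nphs1os against Nphs1 in the 21 libraries, each as TPM + 0.1 on log axes. Circles are libraries with both drivers, triangles gg8 libraries, and the dashed line marks equal levels. Circles run along the line with a median ratio of 0.799, and the gg8 triangles with Nphs1 at 2.59 to 4.85 TPM lie far below it.

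Kirrel, the binding partner of nephrin at the slit diaphragm, differed between constructs in OSN with much less spread. It stood at 58, 82.4 and 72.3 TPM in HT OSN, whereas MexHT OSN libraries lay between 5.52 and 12.2 with a median of 9.11. No libraries overlapped. The mean was 70.9 ± 12.3 TPM (SD, n = 3) against 8.6 ± 2.58 (n = 6), a ratio of 8.25, and the log2 difference was -2.94 (SE 0.24). Over all 16067 genes tested in this comparison, 16.8% were called lower and 19.9% higher in MexHT OSN. Nothing is read from the members against these shares, because they were chosen with this comparison known.

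In negative cells Kirrel was at 67.6, 79.9 and 60.6 TPM in HT and at 48.6, 56.1, 26, 48.1 and 32.1 in MexHT. Here too the highest MexHT library lay under the lowest HT library, with a log2 difference of -0.75 (SE 0.25) that did not pass (limma adjusted p = 0.218). Kirrel was lower in OSN than in negative cells of every MexHT mouse, by -2.56 to -1.89 in log2. The group difference was -2.16 (SE 0.24, limma adjusted p = 7.47e-06), in a comparison where 27.6% of 16522 genes were called lower and 35.8% higher. Kirrel, Kirrel2 and Kirrel3 entered by name as the rest of the family and were tested between fractions, but these tests share OSN libraries with the construct comparison and are not independent of it. In HT mice the same difference was 0.03 (SE 0.17, adjusted p = 0.927), with 2 mice higher and 1 lower in OSN, and its sign turned under median-of-ratios scaling (-0.05), with voom (-0.07) and without HT negative replicate 3 (-0.07) or HT OSN replicate 2 (-0.09). The difference between these effects was not tested, since it holds the construct comparison, which was known when the genes were chosen.

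In gg8 mice Kirrel fell from 72.1 and 72.5 TPM in negative cells to 2.71 and 5.15 in OSN. The log2 difference was -3.94 (SE 0.46, limma adjusted p = 0.0153), where 7.2% of 16490 genes were called lower and 1.12% higher. With 2 mice a side the call was lost without either negative library and without OSN replicate 2. Such a fit leaves a lone library in a fraction, which limits the call of every gene, so the loss is not particular to Kirrel. Leaving out 1 library gave differences of -4.3 to -3.58. The levels in the gg8 table were scaled separately and are not tested against those with both drivers.

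Markers of some other cell types moved with the sort. In MexHT mice 5 of 5 granulocyte, 6 of 6 connective tissue and vessel, 4 of 4 basal and 4 of 4 microvillous cell markers were lower in OSN than in negative cells. In HT mice 5 of 5, 5 of 6, 3 of 4 and 3 of 4 of these markers were lower too. Over all genes 27.6% were called lower and 35.8% higher in OSN of MexHT mice, and 9.11% and 2.18% in HT mice. Of 6 immune markers, 4 were lower and 1 higher in OSN of MexHT mice, whereas in HT mice 3 were higher and none lower. Of 5 sustentacular markers 2 were lower in MexHT mice and 1 in HT mice. Their sum was 321.9 to 1345.8 TPM in HT OSN and 386.2 to 914.3 in HT negative cells. Of 5 progenitor markers 3 were lower in MexHT and 2 in HT mice. Of 6 ensheathing glia markers 1 was higher and 1 lower in MexHT mice, and 1 was higher in HT mice. The summed connective tissue markers were at 127.6 to 245.7 TPM in MexHT OSN and 95.1 to 325.1 in HT OSN, against 7832.2 or more in every negative library with both drivers. Between constructs in OSN, 7 of 8 mature OSN markers were lower and 5 of 6 immature OSN markers higher in MexHT. Also lower were 6 of 6 immune markers (223.1 to 392.5 TPM summed, against 757.9 to 3356.5 in HT OSN). Of all genes in this comparison 16.8% were called lower and 19.9% higher. The part of these shifts in the levels of the 5 genes was not tested.

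Kirrel2 had the highest level of the 5 genes in each of the 21 libraries. In HT OSN it stood at 445.6, 758.0 and 445.7 TPM, whereas MexHT OSN libraries lay between 115.3 and 470.3 with a median of 328.9. Of the 6 MexHT libraries 5 were below all HT libraries, and replicate 3 lay within the HT range. The means were 549.8 ± 180.3 (SD, n = 3) and 305.4 ± 138.0 TPM (n = 6), a ratio of 1.8, with a log2 difference of -0.96 (SE 0.41). This is smaller than the difference of its neighbour Nphs1, so that the ratio of Kirrel2 to Nphs1 within a library was 4.04 to 14.6 in HT OSN and 34.5 to 114.0 in MexHT OSN. In negative cells Kirrel2 was at 291.8, 605.5 and 316.7 TPM in HT and 36.2 to 329.3 in MexHT (median 228.5), with a log2 difference of -1.35 (SE 0.65, limma adjusted p = 0.27).

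Within mice with both drivers Kirrel2 was higher in OSN each time. The range over mice was 0.32 to 0.61 in log2 in 3 HT mice and 0.12 to 2.01 in 5 MexHT mice. Without pairing, the differences of 0.47 (SE 0.34, limma adjusted p = 0.343) and 0.87 (SE 0.53, adjusted p = 0.165) did not pass. With the mouse as a replicate block they were 0.47 (adjusted p = 0.0234) and 1.0 (adjusted p = 0.00892), and both passed. The replicate block called 13.2% of all genes higher and 15.9% lower in OSN of HT mice, and 37.4% and 27.6% in MexHT mice, so such a call was common. The unpaired fit called 2.18% of 17027 genes higher and 9.11% lower in HT OSN. Leaving out MexHT negative replicate 5 brought the MexHT difference to 0.37. That mouse had the lowest Kirrel2 of its group in both fractions, at 115.3 and 36.2 TPM, as it had the lowest sums of mature OSN markers, 1779.2 and 370.5 TPM.

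In gg8 mice the direction was the opposite. Kirrel2 stood at 27.5 and 7.88 TPM in OSN and at 264.3 and 314.8 in negative cells, lower by a log2 difference of -4.19 (SE 0.55, limma adjusted p = 0.02). The call was lost without either negative library and without OSN replicate 2. As for Kirrel, these fits leave a lone library in a fraction, so the loss is not particular to Kirrel2. Leaving out 1 library gave differences of -5.03 to -3.34. Of 8 mature OSN markers 7 were also lower in OSN of these mice, where 7.2% of all genes were called lower and 1.12% higher. Among the 7 was Omp, at 164.2 and 53.8 TPM in OSN and 1937.0 and 3561.0 in negative cells. The part of this shift in the Kirrel2 level was not tested.

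Kirrel3 was the one member with a higher mean in MexHT than in HT OSN. It stood at 63, 50.8 and 43.1 TPM in HT OSN and between 52.8 and 83.3 in MexHT OSN with a median of 66.6. The groups overlapped, with 4 of 6 MexHT libraries above all HT libraries and none below. The log2 difference was 0.33 (SE 0.17), on means of 52.3 ± 10 (SD, n = 3) and 66.1 ± 11.6 TPM (n = 6). In negative cells the direction was the reverse: 44.2, 46.8 and 25.7 TPM in HT and 6.45 to 31.6 in MexHT (median 20.3), with a log2 difference of -1.02 (SE 0.46, limma adjusted p = 0.253) that did not pass.

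Kirrel3 was higher in OSN than in negative cells of all 8 mice with both drivers. In the 5 MexHT mice the difference ran from 1.18 to 2.85 in log2 and the 6 OSN libraries were above all 5 negative libraries, with a group difference of 1.8 (SE 0.32, limma adjusted p = 0.000323). In the 3 HT mice it ran from 0.12 to 0.73, with a group difference of 0.45 (SE 0.26, adjusted p = 0.251). As for Kirrel and Kirrel2, these tests share OSN libraries with the construct comparison and are not independent of it. In gg8 mice Kirrel3 was lower in OSN, at 8.34 and 1.21 TPM against 36.8 and 61. The difference of -3.41 (SE 0.75, limma adjusted p = 0.0443) passed the threshold narrowly. It did not pass with a pseudocount of 0.1 (limma adjusted p = 0.0662), without either negative library or without OSN replicate 2. The fits without a library leave a lone one in a fraction, so their loss of the call is not particular to Kirrel3. Leaving out 1 library gave differences of -4.45 to -2.38.

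**Figure D3:**
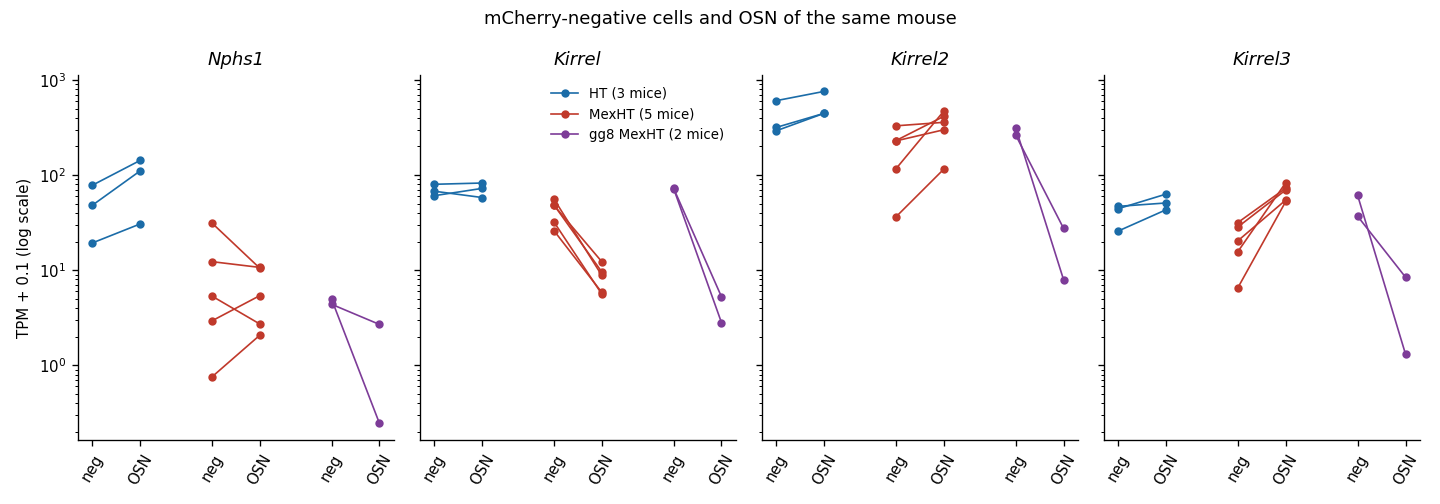
Levels of 4 genes in mCherry-negative cells (neg) and OSN of the same mouse, as TPM + 0.1 on a log axis, with a line for each mouse. Kirrel2 and Kirrel3 lines rise in all 8 mice with both drivers and fall in both gg8 mice, while Kirrel lines fall in the 5 MexHT and 2 gg8 mice.

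The balance of Kirrel and Kirrel3 within a library is free of the scaling between libraries. Kirrel3 was above Kirrel in 6 of 6 MexHT OSN libraries, at 4.46 to 14.5 times its level. In HT OSN it was above in 1 of 3, with ratios of 1.09, 0.616 and 0.596. In all 8 negative libraries with both drivers Kirrel was the higher of the pair, with Kirrel3 at 0.423 to 0.653 of it in HT and 0.201 to 0.599 in MexHT. In gg8 OSN the ratios were 3.08 and 0.235. The ratio in MexHT OSN is a description, since it rests on the construct comparison, which was known when the genes were chosen.

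**Figure D4:**
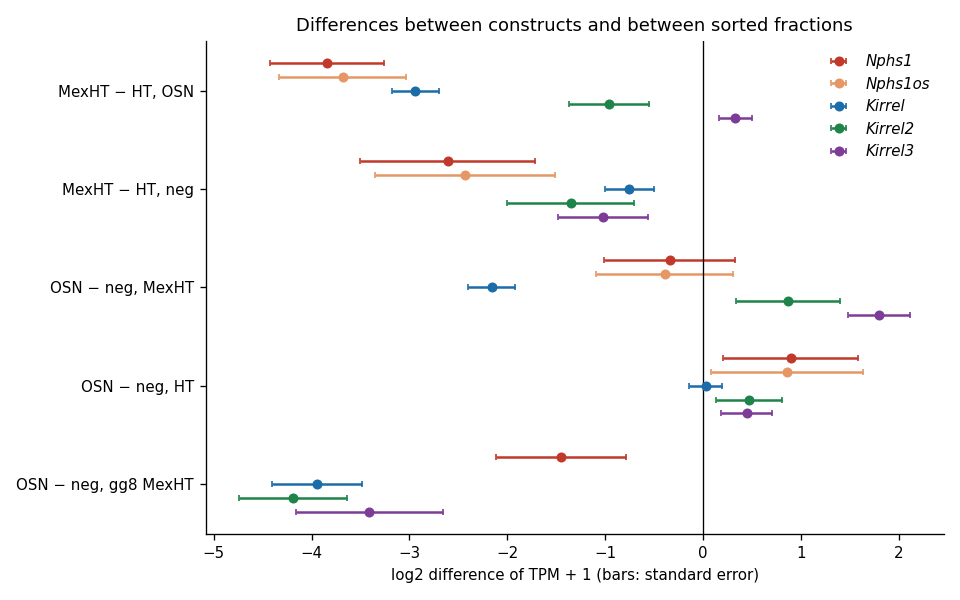
Log2 differences of TPM + 1 for the 5 genes in 5 comparisons, with bars of 1 standard error; neg is mCherry-negative cells, and Nphs1os was under the filter in gg8 mice. In OSN, Nphs1, Nphs1os and Kirrel lie at -3.84, -3.68 and -2.94, apart from Kirrel2 at -0.96 and Kirrel3 at 0.33.

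Ordered by mean level over the 4 groups with both drivers, Nphs1 and Nphs1os ran HT OSN, HT negative, MexHT negative and MexHT OSN, and the ranges of neighbours in that order overlapped at each step. Kirrel ran HT OSN (70.9 TPM), HT negative (69.4), MexHT negative (42.2) and MexHT OSN (8.6), and only HT OSN and HT negative overlapped among these neighbours. Kirrel2 ran HT OSN (549.8), HT negative (404.7), MexHT OSN (305.4) and MexHT negative (188.1), with overlap at each step. Kirrel3 ran MexHT OSN (66.1), HT OSN (52.3), HT negative (38.9) and MexHT negative (20.5), again with overlap at each step.

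Across the 17 libraries with both drivers, which share their scaling and differ in cell makeup, Pearson correlations of log2(TPM + 1) are given as descriptions. Nphs1 went with Nphs1os (r = 0.991), Kirrel2 (0.773) and Kirrel (0.691), and less with Kirrel3 (0.338). Kirrel2 went with Kirrel3 (0.715) and little with Kirrel (0.251), and Kirrel with Kirrel3 at -0.384. The genes most like each member were sought among those averaging 1 TPM or more over the 17 libraries. Members, date-like symbols, microRNAs, pseudogenes and predicted genes (Gm or LOC with digits, or ending in Rik) were left out. Most like Nphs1 were Pyurf (0.98), Rpgrip1l (0.979), Rtkn (0.976), Megf9 (0.975) and Cenpo (0.975). Rpgrip1l, which encodes a protein of the ciliary transition zone, ranged from 18.3 to 103.7 TPM, and Pyurf from 9.64 to 57.1. Those most like Nphs1os were Pyurf (0.972), Rtkn (0.968) and Rgs22 (0.963).

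For Kirrel they were Cd9 (0.97), which encodes a tetraspanin, Dock8 (0.958) and Sgca (0.952). HT OSN libraries held Cd9 at 406.7 to 432.0 TPM, and those of MexHT OSN at 106.5 to 143.9. For Kirrel2 they were Kcnmb3 (0.972), which encodes an auxiliary subunit of a potassium channel, Slc8a1 (0.968) and Abhd3 (0.967), and for Kirrel3 Mmp24 (0.975), which encodes a membrane-bound protease, Lrrc10b (0.974) and Tekt1 (0.974).

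Of 10 neighbours of the Nphs1 and Kirrel2 pair, 9 were in the tables. On the side of Kirrel2, Aplp1, which encodes an amyloid precursor-like protein, differed by -0.31 in MexHT OSN against HT OSN (limma adjusted p = 0.108), while Tyrobp and Nfkbid, expressed in immune cells, were lower (-2.6, adjusted p = 0.000696, and -0.8, adjusted p = 0.01). On the side of Nphs1, Prodh2 and Arhgap33os were under the filter. Arhgap33 was higher (0.68, adjusted p = 0.00943), and Proser3 (-0.08) and Hspb6 (0.05) did not pass.

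The gene lists that follow were chosen, like the members, with earlier results of these data known. Their calls and p-values are therefore given as descriptions and are no independent evidence. The partners of nephrin inside the cell were read from a list of 18 genes. Of these, 15 were tested between constructs in OSN: 6 were higher, 3 were lower and 6 did not pass, with a median of -0.01 against 0.03 over all genes, of which 19.9% were higher and 16.8% lower. The number lower is near that background. Fyn, the kinase that phosphorylates nephrin, rose from 51.3 ± 5.54 TPM (SD, n = 3) in HT to 159.4 ± 32.7 (n = 6) in MexHT OSN, a log2 difference of 1.6 (SE 0.16, limma adjusted p = 0.000178). The adaptors Nck1 (0.62), Nck2 (0.33) and Grb2 (0.51), the phospholipase Plcg1 (0.83) and the polarity protein Pard3 (0.4) were also higher. Iqgap1, a scaffold of actin and signalling proteins, fell by 1.02 (SE 0.12, adjusted p = 0.000353), and Cd2ap, the adaptor that binds the nephrin tail, fell by 0.62 and Actn4 by 0.36. With the Xist level as a covariate only Fyn of these passed (adjusted p = 0.0384).

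Between OSN and negative cells of MexHT mice 6 of 15 partner genes were higher and 3 lower in OSN, with Fyn at 0.99 and Iqgap1 at -1.57. These counts are near the background of 35.8% of genes higher and 27.6% lower. With the replicate block 8 of the 15 were higher and 3 lower, against 37.4% and 27.6% of all genes. None of 16 passed between constructs in negative cells, and none of 15 passed between fractions in HT mice (2 lower with the replicate block) or in gg8 mice, where Fyn differed by 1.51 (limma adjusted p = 0.0526). Without gg8 OSN replicate 1, 2 were higher and 1 lower in gg8 mice.

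Of 15 other genes of glomerular sorting and axon adhesion, 4 were lower and 1 higher in MexHT OSN than in HT OSN. Their median was -0.52 against 0.03 over all genes, of which 16.8% were called lower and 19.9% higher. Ncam2, an adhesion molecule of OSN axons, fell from 238.0 ± 14.2 TPM (SD, n = 3) to 73.9 ± 19.8 (n = 6), a log2 difference of -1.71 (SE 0.2, limma adjusted p = 0.000322). Pcdh19, a protocadherin, fell by 1.25, Nrp1, the receptor of Sema3a, by 0.85 and Cntn4, a contactin, by 0.82. Sema3a rose by 1.44 (adjusted p = 0.000119). With the Xist level as a covariate only Sema3a passed (adjusted p = 0.0171), and the number lower was 2 without HT OSN replicate 1, 1 without HT OSN replicate 2 and 6 without MexHT OSN replicate 5.

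In the OSN of MexHT mice 6 of these 15 genes were higher than in negative cells, near the background of 35.8%. Only Plxnc1, the receptor of Sema7a, was lower (-0.91), against 27.6% of all genes, and Efna5, an ephrin, differed by 1.38. With the replicate block 8 of the 15 were higher and 1 lower in MexHT mice, against 37.4% and 27.6% of all genes. In HT mice Ncam2 was higher (0.69, limma adjusted p = 0.0141) and the other 14 did not pass. The Ncam2 call was lost without HT negative replicate 1 (adjusted p = 0.0712), without HT OSN replicate 1 (0.0605) or 2 (0.0575) and in the fit of all 4 groups (0.0647). With the replicate block 5 of the 15 were higher, against 13.2% of all genes. In gg8 mice, where 7.2% of all genes were called lower and 1.12% higher, Pcdh17 (-2.96), Pcdh19 (-3.15) and Sema7a (-2.21) were lower. Sema3a was higher (1.76). All 4 calls were lost without either negative library or OSN replicate 2. Such fits leave a lone library in a fraction, so this loss is not particular to these genes. Sema3a also missed the threshold with a pseudocount of 0.1 (adjusted p = 0.0626), median-of-ratios scaling (0.0658) and voom (0.0505). The number lower was 8 without OSN replicate 1, 6 with the replicate block and 5 with median-of-ratios scaling or voom. None of 15 passed between constructs in negative cells.

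Of the 6 genes of the odor transduction cascade, 4 were lower and 1 higher in MexHT OSN than in HT OSN. Their median was -1.61 against 0.03 over all genes, of which 16.8% were called lower and 19.9% higher. Adcy3, Cnga2, Cnga4 and Gnal are also among the mature OSN markers above, so this count and that of the markers overlap. Adcy3, the adenylyl cyclase, ranged from 692.8 to 1087.9 TPM in OSN of HT mice and from 57 to 242.9 in those of MexHT mice (log2 difference -2.72, SE 0.38, limma adjusted p = 0.000765). The channel genes Cnga4 (-2.48), Cngb1 (-1.83) and Cnga2 (-0.86) were lower, Gnal (-1.39) did not pass and Gnas was higher (1.39). None of these 6 passed with the Xist level as a covariate. In the fit of all 4 groups 2 were lower, without Cnga2 (adjusted p = 0.188) and Cngb1 (0.0672). In OSN against negative cells of MexHT mice Cnga2 was higher (1.13, limma adjusted p = 0.0431) and Gnas lower (-0.5, adjusted p = 0.00371). Of all genes 35.8% were called higher and 27.6% lower there. The Cnga2 call was lost with median-of-ratios scaling and with voom. With the replicate block 3 of the 6 were higher and 1 lower, against 37.4% and 27.6% of all genes. Between fractions in HT mice none passed unpaired. With the replicate block, which called 13.2% of all genes higher and 15.9% lower, 4 were higher and 1 lower. In gg8 OSN 4 of 6 were lower, including Gnal (-5.13) and Adcy3 (-3.8). These calls were lost without either negative library or OSN replicate 2. Such fits leave a lone library in a fraction, so the loss is not particular to these genes. Over all genes 7.2% were called lower and 1.12% higher in gg8 OSN. In negative cells none of the 6 passed between constructs, with a median of -1.67.

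**Figure D5:**
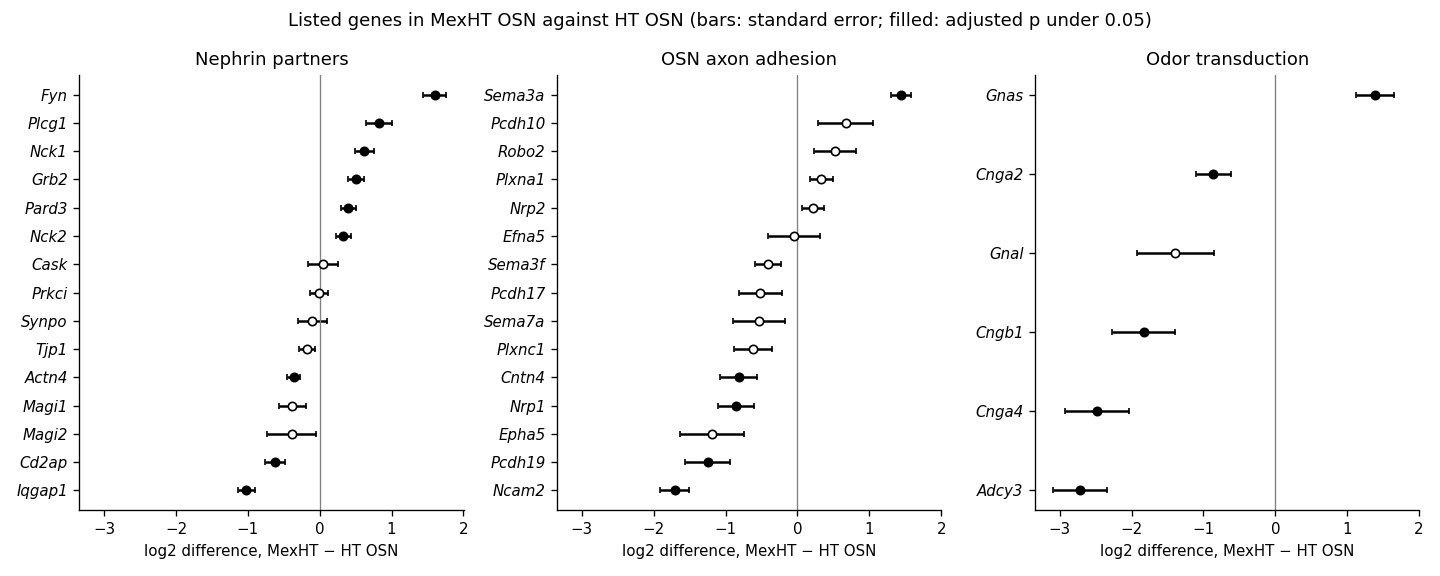
Log2 difference between MexHT and HT OSN for the tested genes of 3 lists, with bars of 1 standard error and filled points for an adjusted p under 0.05. Fyn (1.6) and Sema3a (1.44) are the highest of their lists, and Ncam2 (-1.71) and Adcy3 (-2.72) the lowest of theirs.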

How the data were processed

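RNA of sorted cells from 21 mouse samples was sequenced with a stranded total RNA kit, per the labels' protocols. The submitters' processing notes name FastQC, cutadapt, STAR, bedtools and mm10, with no role or order. The authors deposited 2 tables of TPM, one for each driver setting, scaled separately, so all tests stayed within a table. Replicates are libraries from separately numbered mice. TPM steps gave whole counts for 23185 of 23185 genes searched (100.0%, tolerance 0.001 of a count) with both drivers and 22596 of 22605 (99.96%, tolerance 0.05) with gg8tTA. These counts give depth, and intervals or floors from them cover counting error only.

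Differences were fitted with limma 3.58.1 (R 4.3.3) on log2(TPM + 1), which understates changes of low genes, over all genes averaging 1 TPM or more across the libraries compared. P-values were two-sided and adjusted by Benjamini-Hochberg over all genes fitted, with a threshold of 0.05. The script was tested on simulated data. Rows with date-like symbols, 27 in either file, were left out of tests. The genes named are the 5 members, members of 3 lists (nephrin partners, axon adhesion and odor transduction), the genes most correlated with each member and the neighbours of the Nphs1 and Kirrel2 pair. Members and lists were chosen with earlier results of these data known.

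Fractions pair by mouse per the labels. Deviations from group means of same-numbered libraries correlated at 0.174 to 0.475 in HT, -0.109 to 0.421 in MexHT and 0.018 in gg8 mice. Between constructs in negative cells 3 of 3 such correlations were over 0.1 (0.231 to 0.418). The differently numbered MexHT replicate 5 and HT replicate 3 correlated at 0.476. The labels give no mouse shared between constructs, so the main fit there has no block, and the replicate block is an alternative only. Alternatives were a pseudocount of 0.1, no filter, median-of-ratios scaling, voom on recovered counts, a replicate block, a fit of all 4 groups, an Xist covariate and leaving out each library. One gene of the lists is not reported here.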

Additional observations from a re-analysis of the deposited data

Results flagged for a closer look

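Kirrel2 and Kirrel3 differed between fractions in opposite directions in mice with both drivers and in gg8 mice, and Nphs1 did so in HT and gg8 mice. These gaps were not tested. Driver, date and table change together in them, and HT against gg8 changes construct as well. The negative cells also differ in makeup. Their mature OSN markers summed to 6649.7 and 11992.2 TPM in gg8 mice, 4490.5 to 9517.4 in HT and 370.5 to 6086.9 in MexHT mice. For Kirrel2 every mouse with both drivers was higher in OSN and both gg8 mice were lower. The mean within-mouse log2 difference was 0.47 in 3 HT mice, 1.0 in 5 MexHT mice and -4.19 in 2 gg8 mice, so HT exceeded gg8 by 4.66 and MexHT exceeded gg8 by 5.19. For Kirrel3 the means were 0.45, 1.81 and -3.42, so HT exceeded gg8 by 3.86 and MexHT exceeded gg8 by 5.22. For Nphs1 the 3 HT mice were higher in OSN (mean 0.89) and the 2 gg8 mice lower (mean -1.46), a gap of 2.35, while in MexHT mice Nphs1 was higher in 2 and lower in 3 of 5 (mean -0.18). No sample stood apart from its group in the 10 gene and group pairs of 4 to 10 samples that were checked.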

How the results depend on the processing

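Over the alternatives for the 5 genes, 312 of 331 values kept both their sign and, where tested, their side of the threshold, and 6 changed sign. In MexHT mice without negative replicate 2 the difference between fractions was 0.22 for Nphs1 and 0.21 for Nphs1os, in place of -0.34 and -0.39. In HT mice that of Kirrel, 0.03, was -0.05 with median-of-ratios scaling, -0.07 with voom and -0.09 to 0.16 leaving out 1 library. Of 2462 values of list genes, 87 with no call changed sign. With the mouse as a replicate block, Kirrel2 passed between fractions in MexHT (1.0, limma adjusted p = 0.00892) and in HT mice (0.47, adjusted p = 0.0234), and no other call on these genes changed under pairing. Between constructs in OSN the numbers did not pair the libraries (correlations of -0.228 to 0.132), and with that replicate block Efna5 turned from -0.05 to 0.44 (adjusted p = 0.0261). In gg8 mice Kirrel3 was at -3.84 (adjusted p = 0.0662) with a pseudocount of 0.1. Leaving out 1 gg8 library gave -4.3 to -3.58 for Kirrel, -5.03 to -3.34 for Kirrel2, -4.45 to -2.38 for Kirrel3 and -2.28 to -0.63 for Nphs1.

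Counts over all genes moved more. With the Xist level as a covariate 204 genes were higher and 125 lower in MexHT OSN, against 3202 and 2705. Leaving out HT OSN replicate 1 or 2 gave 3745 or 3886 calls in place of 5907. In negative cells 0 to 4 genes passed when 1 library was left out, 1 without the filter and 23 in the fit of all 4 groups. Between fractions in HT mice 371 higher and 1552 lower became 2255 and 2712 with the replicate block and 79 and 975 with voom on recovered counts, and leaving out 1 library gave 660 to 4183 calls. In gg8 mice 185 and 1187 became 67 and 579 with a pseudocount of 0.1, and leaving out 1 library gave 0 to 3703 calls. Median-of-ratios scaling moved the median over all genes between fractions in MexHT mice from 0.16 to 0.03, and the split from 5909 higher and 4558 lower to 4875 and 5149. With 2 gg8 libraries a fraction, a fit without 1 of them assumes that the lone library varies like the other group. Low counts limit Nphs1os most, with 0 to 14 reads in 4 of 6 MexHT OSN, 3 of 5 MexHT negative and all 4 gg8 libraries.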
